A study of Mus musculus with 18 samples.

Results

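The comparison sets 3 arrays of mice without functional Trem2 against 4 arrays of wild-type mice, all labelled 6 weeks, out of 18 arrays in the series. The arrays were chosen by the genotype and stage in the sample titles. All 20416 genes with a value were taken, of which 16332 passed a filter on low values and were tested. Each array holds RNA of the caudal corpus callosum, a tract of white matter that joins the hemispheres. The wild-type group (WT) carries intact Trem2 alleles, and the knockout group (KO) is labelled TREM2-/-. Both groups are C57BL/6, and both ate standard chow with 0.2% cuprizone (CPZ), a copper chelator under which oligodendrocytes die and myelin is lost, so the controls carry the treatment too. The stage has several readings in the labels. The descriptions call these mice 6 weeks old, while the treatment protocol gives 6 to 12 weeks as the age of the mice and lists more than 1 duration of the diet. All 18 arrays are recorded with 0.2% CPZ, so no array of mice on chow free of CPZ could serve as a control. The labels do not say how the knockout allele was made or in which cells Trem2 is lost. Nothing in the labels ties each array to a mouse of its own, so p-values describe the spread between these samples, part of which may be technical.

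TREM2 is a receptor on microglia, the resident macrophages of the brain, and on other tissue macrophages. It binds lipids and lipoproteins, among them lipids exposed on damaged myelin, and signals through its adaptor TYROBP and the kinase SYK. In demyelinated white matter microglia turn down genes of their resting state, such as purine receptors, and turn up genes for uptake and handling of lipid, a switch known as the disease-associated state and known to need TREM2 for its full extent.

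The arrays were unequal within each genotype. Across the 7 arrays the first principal component held 37% of the variance and did not follow genotype, with WT replicates at −35.1, −38, 15.1 and 42 and KO replicates at −18.9, 51.6 and −16.6. KO replicate 2 and WT replicate 4 had the lowest array weights that limma assigned at this stage (0.446 and 0.502, against 0.826 to 1.5 in the other 5). A list score, the mean over the genes of a list after each gene's 7-array mean was subtracted, shows how these arrays stood apart. The neuron score was −1.30 in KO replicate 2 and −0.85 in WT replicate 4, against −0.22 to 0.80 in the others. WT replicate 4 alone was high in choroid plexus genes (2.83, against −1.09 to 0.19) and in ependyma genes (2.01, against −0.67 to 0.04), 2 tissues that line the ventricles. KO replicate 2 had the highest score of the pan-myeloid list, genes broadly expressed in myeloid cells (1.31), followed by WT replicate 3 (0.73). All 20 measured genes of mature oligodendrocytes lay above the filter, as did all 22 measured neuronal and all 13 measured choroid plexus genes, which does not tell the corpus callosum from other brain tissue. WT replicates 1 and 2 and KO replicates 1 and 2 were male by their Xist and Y-linked values, and the other 3 were female.

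Trem2 and the genes of its signalling chain came first, since Trem2 checks the labels. Trem2 read 7.21, 7.09, 8.42 and 6.44 on the log2 scale in WT replicates 1 to 4 and 6.05, 5.94 and 5.42 in KO replicates 1 to 3. Every KO array lay under every WT array, by 0.39 at the closest, but Trem2 did not pass the test over all genes (−1.49 ± 0.36 SE, adjusted p = 0.248, limma). Its 7 probe sets ran from −2.89 to 0.16, and which of them lie in the part that the allele removes is not given in the labels, so this check of genotype is partial. Tyrobp, the adaptor, read 10.71, 10.18, 11.16 and 10.13 in WT and 11.12, 11.59 and 11.13 in KO, and the groups overlapped (0.73, adjusted p = 0.653). Treml1 (0.01, adjusted p = 0.999) and Treml2 (−0.11, adjusted p = 0.999), receptor genes of the same cluster, lay close to 0 and changed sign in some settings. Of the 20 genes in the list of TREM2 receptors, adaptors and kinases 19 were measured and 16 tested. None of the 16 passed, 13 had a positive difference of KO minus WT and 3 a negative one, and the median was 0.46 (0.19 without KO replicate 2), against 0.00 over all 16332 genes. The 3 others of smallest p were Cd33, an inhibitory lectin receptor of myeloid cells (1.34, adjusted p = 0.236), Pik3cg, the gamma catalytic subunit of PI3 kinase (1.23, adjusted p = 0.634), and Inpp5d, the phosphatase SHIP1, which acts against PI3 kinase (1.21, adjusted p = 0.653).

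Over all genes 7 of 16332 were higher in KO at an adjusted p under 0.05 (0.0429%) and 0 were lower (0%), in limma with Benjamini-Hochberg adjustment. At an unadjusted p under 0.05 there were 533 higher (3.26%) and 355 lower (2.17%). The median difference was 0.00, with 8094 genes above and 8238 below it, and 127 genes were higher and 63 lower by over 1 on the log2 scale. The 7 genes were P2ry13, Siglech, Crybb1, Thrsp, Zfp36, P2ry12 and Ecscr, and each had every KO array above every WT array. Such a gap was seen in 2.72% of all genes with KO on top and in 2.36% with KO below, so the gap alone is common.

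P2ry13 and P2ry12 encode receptors for adenine nucleotides, and P2ry12 guides microglial processes towards injury. P2ry13 read 6.58, 6.29, 7.09 and 6.42 in WT and 8.04, 9.87 and 8.45 in KO. KO replicate 2 was highest and the KO arrays stayed 0.95 clear of the WT arrays, which gave a difference of 2.19 ± 0.31 (log2, SE), or 4.57-fold (adjusted p = 0.0113). P2ry12 read 6.22, 5.32, 5.56 and 6.92 in WT and 7.85, 9.33 and 8.24 in KO, a difference of 2.47 ± 0.42, or 5.52-fold (adjusted p = 0.0301). Its WT arrays were more spread than those of P2ry13 (SD 0.72 against 0.35), with WT replicate 4 highest. No protein-coding gene lies between them in the RefSeq annotation, and all 3 probe sets of P2ry13 and all 7 of P2ry12 were higher in KO.

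Siglech encodes a lectin that recognises sialic acid and marks microglia against other brain macrophages. It read 6.65, 6.33, 6.48 and 6.98 in WT and 8.07, 10.01 and 8.64 in KO, a difference of 2.30 ± 0.34, or 4.91-fold (adjusted p = 0.0117), with 8 of 8 probe sets higher in KO. Crybb1, a crystallin gene that microglia express, read 5.36, 5.25, 5.75 and 5.80 in WT and 6.76, 8.07 and 7.05 in KO (1.75 ± 0.27, adjusted p = 0.0117). Its neighbour Cryba4, another crystallin gene, also had all KO arrays above all WT arrays (1.83 ± 0.43) without passing (adjusted p = 0.238). Cryba4 was chosen after its values were seen, for its position.

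The promoter windows of P2ry13, P2ry12 and Siglech, from 250 bases before to 50 after the start of transcription, are shown because these 3 receptor genes of resting microglia moved together and 2 of them are neighbours. They come from RefSeq on mouse build GRCm38.p6 and lie at chr3:59210833-59211132 on the minus strand, chr3:59262936-59263235 on the minus strand and chr7:55767934-55768233 on the plus strand. Each is printed 5′ to 3′ along its gene, with any match to a searched motif in capitals.
P2ry13: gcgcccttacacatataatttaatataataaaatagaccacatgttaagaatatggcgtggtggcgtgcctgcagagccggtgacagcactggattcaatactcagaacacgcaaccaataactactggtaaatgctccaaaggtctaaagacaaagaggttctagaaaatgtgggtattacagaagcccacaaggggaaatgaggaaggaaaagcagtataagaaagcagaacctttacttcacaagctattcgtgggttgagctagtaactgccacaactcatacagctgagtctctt
P2ry12: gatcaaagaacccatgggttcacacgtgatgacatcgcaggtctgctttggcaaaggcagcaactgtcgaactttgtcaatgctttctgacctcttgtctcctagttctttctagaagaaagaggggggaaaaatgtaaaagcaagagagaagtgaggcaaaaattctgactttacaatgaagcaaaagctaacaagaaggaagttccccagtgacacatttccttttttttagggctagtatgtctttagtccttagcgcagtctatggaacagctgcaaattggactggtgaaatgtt
Siglech: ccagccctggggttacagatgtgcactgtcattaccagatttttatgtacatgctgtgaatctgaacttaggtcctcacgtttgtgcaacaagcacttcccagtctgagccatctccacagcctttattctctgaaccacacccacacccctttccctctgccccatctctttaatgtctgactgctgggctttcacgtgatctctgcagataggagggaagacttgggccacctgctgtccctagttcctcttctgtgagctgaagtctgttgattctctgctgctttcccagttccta
The 3 motifs searched, on both strands, were GAGGAAGT, of the kind bound by the myeloid factor PU.1, GAAANNGAA, of the interferon response kind, and TGACGTCA, the CRE kind. Of the 7 genes that passed 6 have a window in the table, and none of the 6 held any of these letters, which says nothing on the factors themselves. Over all 27025 genes with a window 3.69% held the first, 9.76% the second and 2.03% the third.

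The other 3 genes that passed are no classical microglial markers. Thrsp, which acts in the synthesis of fatty acids, read 7.45, 6.95, 7.81 and 7.67 in WT and 8.97, 9.74 and 8.94 in KO (1.75 ± 0.27, adjusted p = 0.0136), a gap of 1.13 between the groups. Ecscr, known from endothelium, read 4.69, 4.56, 4.82 and 4.66 in WT and 6.44, 7.88 and 6.61 in KO (2.29 ± 0.41, adjusted p = 0.0420). Its WT arrays were the tightest of the 7 genes (SD 0.11), and its 10 probe sets ran from −0.59 to 3.47, with 0.06 for the brightest, so the value of Ecscr depends on the probe sets taken. Zfp36 encodes tristetraprolin, a protein that speeds the decay of mRNAs of cytokines. It read 5.29, 6.05, 5.63 and 5.68 in WT and 6.60, 7.12 and 6.79 in KO (1.18 ± 0.20, adjusted p = 0.0301), and its 2 probe sets differed (0.24 and 2.11).

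In a fit of the 7 arrays alone, without the spread of the 12-week arrays, the differences were the same and none of the 7 passed, with adjusted p of 0.939 for P2ry13, Siglech, Crybb1, Thrsp and P2ry12 and 0.641 for Ecscr. KO replicate 2 was the highest of the 7 arrays in each of these 7 genes. Without it P2ry13 alone passed (1.65, adjusted p = 0.0198), while the other 6 kept differences of 1.03 (Zfp36) to 2.04 (P2ry12). Without WT replicate 1 none of the 7 passed, with P2ry13 at 2.18 (adjusted p = 0.0560), without WT replicate 2 only P2ry13 and Zfp36 did, and without KO replicate 3 it was Crybb1, P2ry13, Siglech and Thrsp.

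**Figure D1:**
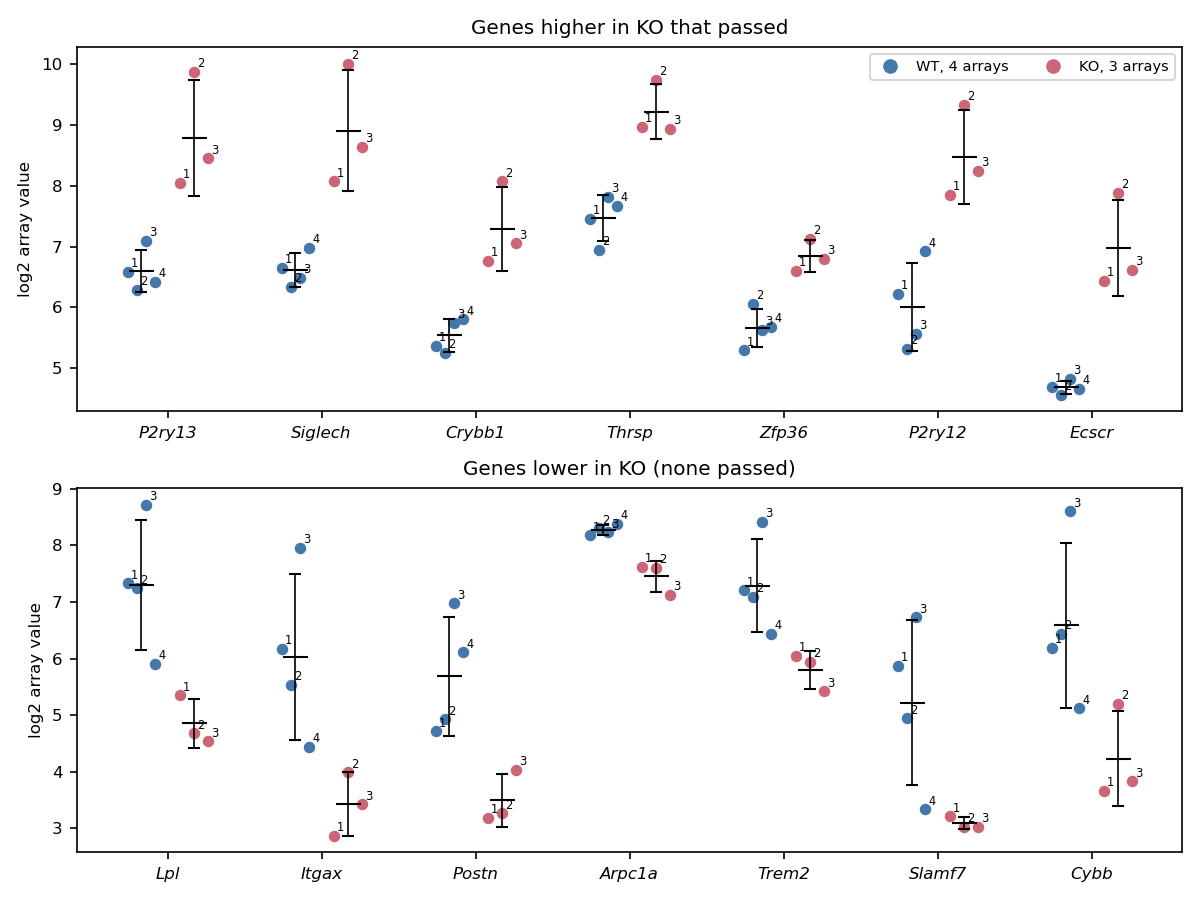
Deposited log2 values (vertical axis) of the 7 genes that passed and of 7 genes lower in KO, in the 4 WT arrays (blue) and the 3 KO arrays (red) of 6 weeks; each point is an array with its replicate number, and bars give the mean and SD. In the upper plot every KO array lies above every WT array and KO replicate 2 is highest, while in the lower plot WT replicate 3 is highest in Lpl, Itgax, Postn, Trem2, Slamf7 and Cybb.

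The list of resting, or homeostatic, microglia holds 26 genes, of which 25 were measured and tested. Of these 23 had a positive difference and 2 a negative one, the median was 1.03, and 4 passed (P2ry13, Siglech, Crybb1 and P2ry12). In 7 of the 25 (28.0%) every KO array lay above every WT array, against 2.72% of all genes. The list was written with earlier results of these data known, so its count describes and does not test. Gpr34, a receptor for lysophosphatidylserine, read 5.11, 5.01, 6.50 and 5.06 in WT and 6.67, 8.11 and 7.28 in KO (1.93, adjusted p = 0.101). Here WT replicate 3 stood well above the other WT arrays and close to KO replicate 1. Slc2a5, a fructose transporter (1.75, adjusted p = 0.215), and Lpcat2, an enzyme of phospholipid remodelling (0.98, adjusted p = 0.290), also had no overlap. Tmem119, a surface marker of microglia, read 5.03, 5.82, 4.94 and 6.23 in WT and 6.91, 8.17 and 6.22 in KO, so that KO replicate 3 lay just under WT replicate 4 (1.59, adjusted p = 0.236). Cx3cr1, the fractalkine receptor, was at 1.03 (adjusted p = 0.491), with WT replicate 3 above KO replicate 1.

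Genes of the pan-myeloid list also had mostly positive differences. The list includes genes of macrophages and microglia, such as Adgre1, C1qa and Csf1r, so its score is no measure of all myeloid cells alike. Of the 23 tested, 20 had a positive difference and 3 a negative one, with a median of 0.71 and 0 passing (limma; 10 higher and 0 lower at an unadjusted p under 0.05, against 3.26% and 2.17% of all genes). Adgre1, the F4/80 antigen, read 5.91, 4.87, 6.60 and 4.34 in WT and 7.14, 8.47 and 7.17 in KO (2.16 ± 0.42, adjusted p = 0.0825). Itgam, the CD11b subunit of complement receptor 3, read 6.25, 6.49, 7.57 and 6.60 in WT and 7.88, 9.06 and 8.04 in KO (1.60 ± 0.34, adjusted p = 0.141). In both genes, and in Aif1 (1.36, adjusted p = 0.248), which encodes IBA1, the groups did not overlap. The list's score was −0.43, −0.55, 0.73 and −0.98 in WT and −0.14, 1.31 and 0.05 in KO, so WT replicate 3 exceeded 2 of the 3 KO arrays. Without WT replicate 4 and KO replicate 2 together the median of this list was 0.15 and that of the homeostatic list 0.54. Without KO replicate 2 alone they were 0.24 and 0.67, and without WT replicate 3 the pan-myeloid median was 1.10. In RNA of whole tissue fewer cells of a type and less RNA per cell cannot be told apart.

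Among genes lower in KO none passed, and Lpl and Itgax, both of the disease-associated list, had the smallest p. Lpl encodes lipoprotein lipase, which frees fatty acids from lipoproteins. It read 7.33, 7.24, 8.72 and 5.91 in WT and 5.35, 4.68 and 4.54 in KO, with 15 of 15 probe sets lower (−2.44 ± 0.49, 5.44-fold, adjusted p = 0.0883). Itgax, the CD11c integrin subunit that marks activated microglia and dendritic cells, read 6.17, 5.54, 7.96 and 4.44 in WT and 2.87, 3.99 and 3.43 in KO (−2.60 ± 0.52, 6.06-fold, adjusted p = 0.0883). WT replicate 3 was highest and WT replicate 4 lowest among the WT arrays of both genes, yet neither overlapped the KO arrays. Without WT replicate 4 both passed (Lpl at −2.91 and Itgax at −3.13, adjusted p = 0.00794 each). In KO the mean of Itgax was 3.43, next to the filter level of 3.41, and its brightest probe set gave −0.35, so the size of its difference is uncertain.

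Postn, which encodes the matrix protein periostin, read 4.72, 4.93, 6.98 and 6.11 in WT and 3.19, 3.27 and 4.04 in KO (−2.18 ± 0.47, adjusted p = 0.153), and 20 of 20 probe sets were lower. Slamf7, a receptor of the SLAM family on activated leukocytes, read 5.87, 4.95, 6.73 and 3.34 in WT and 3.22, 3.03 and 3.03 in KO (−2.13, adjusted p = 0.290), so that WT replicate 4 was almost at the KO level. Cybb, which encodes the gp91phox chain of the superoxide-making NADPH oxidase, read 6.19, 6.44, 8.60 and 5.12 in WT and 3.67, 5.20 and 3.83 in KO, and KO replicate 2 lay above WT replicate 4 (−2.35, adjusted p = 0.468). Ctse, an aspartic protease of endosomes (−1.66, adjusted p = 0.468), and Rab7b, a GTPase of late endosomes (−1.37, adjusted p = 0.511), are adjacent genes, and neither overlapped. Il1r1, the receptor of interleukin-1, had tight groups at 6.37, 5.95, 6.02 and 5.81 in WT and 4.41, 4.72 and 4.32 in KO, 1.09 apart (−1.55, adjusted p = 0.511), but its brightest probe set gave −0.07. The other 6 of the 15 with the smallest p were Arpc1a, a subunit of the actin-nucleating ARP2/3 complex (−0.82, adjusted p = 0.236), Rwdd3, Fut10, Wdr24, Plekha1 and Lrrc8b, between −1.38 and −0.70. With the brightest probe set Rwdd3 was at 0.02 and Fut10 at 0.07.

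**Figure D2:**
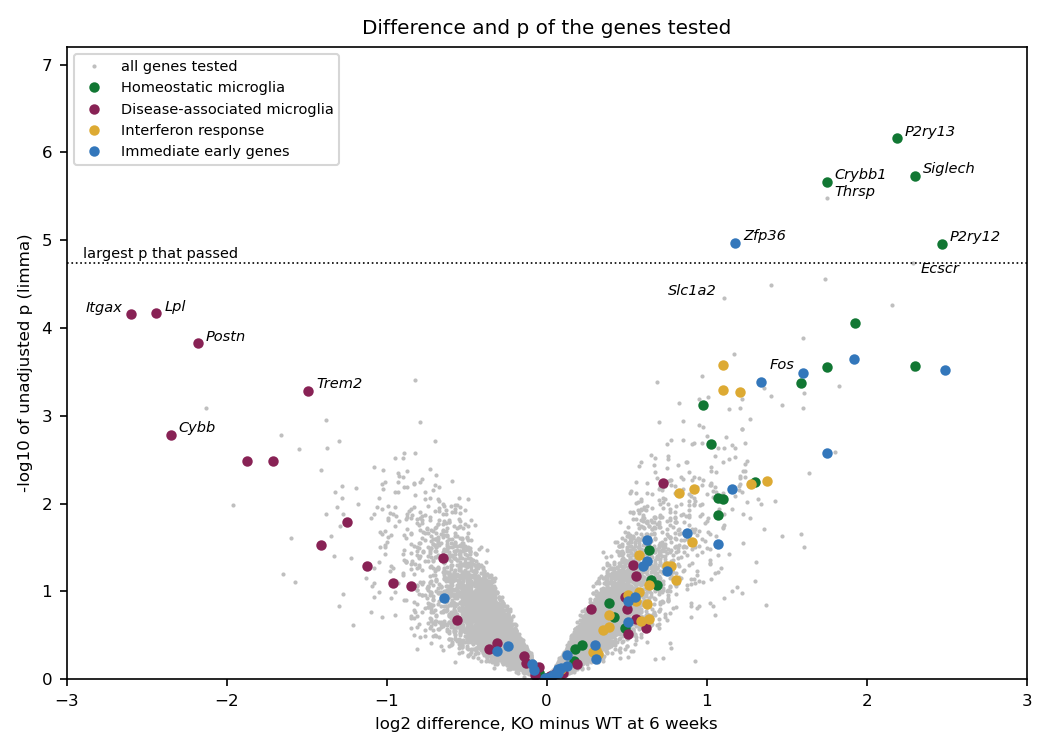
Difference of KO minus WT at 6 weeks (horizontal, log2) against −log10 of the unadjusted p (vertical) for the 16332 genes tested, with 4 lists coloured and the largest p that passed as a dotted line. The 7 genes above the line lie on the right, and Lpl and Itgax, at −2.44 and −2.60, are the highest points on the left.

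Disease-associated genes and pan-myeloid genes separated the genotypes when they were set against each other within an array. The disease-associated list had 34 of 34 genes tested, 14 with a positive and 20 with a negative difference, a median of −0.13 and a mean of −0.51, and 0 passed (limma; 2 higher and 10 lower at an unadjusted p under 0.05, against 3.26% and 2.17% of all genes). The median was −0.49 without KO replicate 2 and −0.01 without KO replicate 1. Its score alone overlapped between genotypes, at 0.17, −0.05, 1.14 and −0.39 in WT and −0.74, 0.35 and −0.48 in KO. The score minus that of the pan-myeloid list was 0.59, 0.50, 0.41 and 0.59 in WT and −0.60, −0.97 and −0.53 in KO. Every WT array was positive and every KO array negative, and neither KO replicate 2 nor WT replicates 3 and 4 stood apart by direction. Each gene was centred on its mean over these 7 arrays, so opposite signs follow once the groups are apart. With Trem2, Tyrobp and the genes shared by both lists left out, the gap ran from 0.43 to 0.61 in WT and from −0.98 to −0.55 in KO. The same gap in the 12-week arrays, which are separate samples centred on their own mean, ran from 0.35 to 0.86 in WT and from −0.61 to −0.37 in KO. The homeostatic score minus the pan-myeloid score overlapped between genotypes (−0.79 to 0.47 in WT and 0.04 to 0.33 in KO). No p is given for these scores, because the lists were written with results of these data known.

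**Figure D3:**
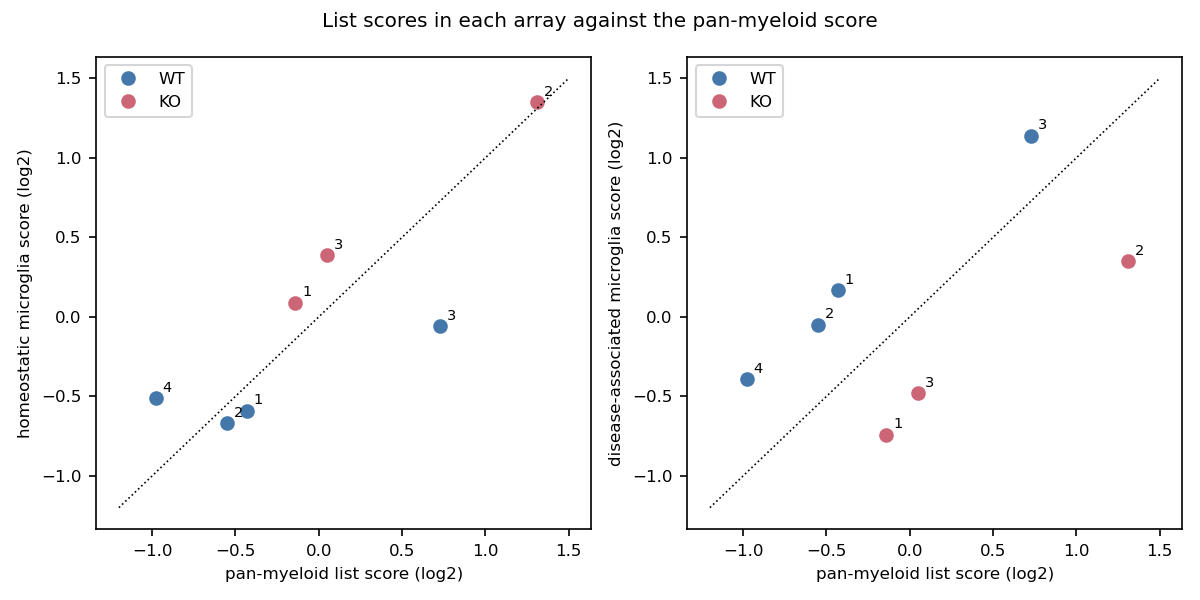
Score of the homeostatic list (left) and of the disease-associated list (right) against the pan-myeloid score in the 7 arrays of 6 weeks, as mean centred log2 values with replicate numbers; the dotted line marks equal scores. On the right the 4 WT arrays lie above the line by 0.41 to 0.59 and the 3 KO arrays below it (−0.97 to −0.53), while on the left WT arrays lie on both sides of it.

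A fit with the pan-myeloid score of each array as a covariate was added after seeing the data, and the score comes from the same arrays. In it 5 of 16332 genes were higher in KO (0.0306%) and 20 were lower (0.122%) at an adjusted p under 0.05. The score itself was higher on average in KO, so the fit lowers the difference of any gene that rises with it. The median of the Toll-like receptor list moved from 0.53 to −0.13, and that of the neuron list from −0.25 to 0.07. Of the 7 genes that passed without the covariate 4 passed here too, namely Crybb1 (1.42), P2ry13 (1.76), Siglech (1.98) and Thrsp (1.46), together with the microglial Fc receptor-like gene Fcrls (1.20). P2ry12 (2.25, adjusted p = 0.0713), Zfp36 (1.09, adjusted p = 0.0647) and Ecscr (1.94, adjusted p = 0.119) did not. Among the 20 lower genes were Trem2 (−2.01, adjusted p = 0.00815), Lpl (−3.05, adjusted p = 0.00773), Itgax (−3.57, adjusted p = 2.80e-05), Cybb (−3.58, adjusted p = 2.20e-04) and Spp1, which encodes osteopontin (−2.99, adjusted p = 6.16e-05). Others act in lipid and lysosomal handling (Ch25h, cholesterol 25-hydroxylase, −2.01; Atp6v0d2, a proton pump subunit, −2.45; Ctse, −2.24; Rab7b, −1.99). A further group comprises surface receptors and lectins (Clec7a, −2.06; Slamf7, −2.77; Cd52, −1.40; Lgals3, −1.73), the chemokines Ccl6 (−1.92) and Cxcl16 (−1.72), the proteases Mmp12 (−2.24) and Plau (−2.20), the class II chain H2-Ab1 (−2.0), the RNA editing enzyme Apobec1 (−1.93) and the myosin Myo1f (−1.71). Without the covariate Lgals3 (−0.85), Cd52 (−0.56) and Clec7a (−1.12) had overlapping groups and did not pass, and KO replicate 2 was the highest KO array in each of them. Spp1, for example, read 8.64, 8.37, 9.94 and 7.56 in WT and 5.51, 8.31 and 6.44 in KO.

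The lists of receptors and ligands through which microglia sense their surroundings come next. Of 12 purine receptor and ectonucleotidase genes tested 10 had a positive difference (median 0.39, or 0.16 without KO replicate 2), and 2 passed, P2ry12 and P2ry13. Entpd1, the CD39 enzyme that breaks down ATP, was at 1.30 with overlap (adjusted p = 0.653). All 6 genes of Fc receptors for immunoglobulin G had positive differences, from 0.38 for Fcgr1 to 1.06 for Fcgr4, with Fcer1g, their common signalling chain, at 0.99, Fcgrt at 0.67, Fcgr3 at 0.62 and Fcgr2b at 0.49. None of the 6 passed or was free of overlap, and the median of 0.64 was 0.26 without KO replicate 2. Without WT replicate 4 and KO replicate 2 Fcgr3 was at −0.29 and Fcgr1 at −0.46. Of 13 Toll-like receptor genes and co-factors 11 had a positive difference (median 0.53) and 0 passed, and without KO replicate 2 the median was 0.10. Tlr13, an endosomal receptor for bacterial RNA, read 5.51, 4.17, 5.06 and 3.04 in WT and 5.82, 7.27 and 5.64 in KO (1.80, adjusted p = 0.548), and Tlr3 (0.58) and Tlr4 (0.73) overlapped. The adaptor Myd88 was at −0.71, with KO replicate 1 lowest at 3.84, and at 0.26 with its brightest probe set.

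Complement genes had 10 positive and 4 negative differences of 14 (median 0.26, or 0.13 without KO replicate 2, 0 passing). C1qa (0.92) and C1qb (1.14), chains of the initiating complex C1q, overlapped, with KO replicate 2 highest, while C3, the central component, was at −0.78 (adjusted p = 0.939). Among 18 genes of cytokines and the inflammasome Pycard, the adaptor ASC, read 6.28, 6.00, 6.91 and 5.77 in WT and 6.49, 8.35 and 7.61 in KO (1.24, adjusted p = 0.491). Il1a (1.10) and Tnf (0.62) did not pass either, and the median of the list was 0.31, or −0.03 without KO replicate 2. Of 17 chemokine genes (median 0.10, or −0.10 without KO replicate 2) Ccl12 and Ccl5 had no overlap (2 of 17, 11.8%, against 2.72% of all genes). Ccl12, a ligand of CCR2, read 5.63, 4.09, 6.33 and 6.38 in WT and 7.09, 9.04 and 7.55 in KO (2.29, adjusted p = 0.215), and Ccl5 was at 0.78 (adjusted p = 0.653). Cxcl9, induced by interferon gamma, read 4.15, 4.82, 4.66 and 5.53 in WT and 4.24, 8.45 and 6.44 in KO (1.59, adjusted p = 0.819). Its KO arrays spanned more than the difference itself, with KO replicate 1 at the WT level.

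All 26 tested genes of the interferon response had a positive difference, with a median of 0.64 and 0 passing (limma; 9 higher and 0 lower at an unadjusted p under 0.05, against 3.26% and 2.17% of all genes). Without KO replicate 2 the median was 0.30, and without it and WT replicate 4 there were 22 positive and 4 negative differences. Ifit3, which restricts viral replication, read 8.29, 8.10, 8.50 and 9.19 in WT and 9.36, 10.13 and 9.37 in KO (1.10 ± 0.25, adjusted p = 0.215). WT replicate 4 came closest to the KO arrays. Ifit3b, a near copy whose probes may also read Ifit3, was at 1.10, and Rtp4, a chaperone of receptors, read 6.23, 5.95, 6.73 and 7.03 in WT and 7.26, 8.31 and 7.51 in KO (1.21, adjusted p = 0.248). Ifi44 (1.38) and Oas2 (0.92), the latter chosen after its values were seen, complete the 5 members without overlap (19.2%, against 2.72% of all genes). With its brightest probe set Oas2 was at −0.03. The list's score was −0.44, −0.70, −0.07 and 0.02 in WT and −0.23, 1.08 and 0.33 in KO, so KO replicate 1 lay under WT replicates 3 and 4.

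Promoter windows are shown for Ifit3, as the interferon response gene of smallest p, and for Ptgs1 (cyclooxygenase 1, a prostaglandin enzyme of microglia), the one gene with PU.1-type letters among the 11 windows found for the 15 higher genes of smallest p. Ptgs1 read 5.39, 5.52, 6.20 and 5.76 in WT and 6.75, 8.59 and 7.04 in KO (1.74, adjusted p = 0.0558). Capitals mark the matches, which for Ifit3 are 3 matches to GAAANNGAA on the opposite strand, at 155, 121 and 102 bases before the start, and for Ptgs1 1 match to GAGGAAGT, 24 bases before it. The windows lie at chr19:34583279-34583578 and chr2:36230176-36230475 in GRCm38.p6, both on the plus strand, and come from RefSeq.
Ifit3: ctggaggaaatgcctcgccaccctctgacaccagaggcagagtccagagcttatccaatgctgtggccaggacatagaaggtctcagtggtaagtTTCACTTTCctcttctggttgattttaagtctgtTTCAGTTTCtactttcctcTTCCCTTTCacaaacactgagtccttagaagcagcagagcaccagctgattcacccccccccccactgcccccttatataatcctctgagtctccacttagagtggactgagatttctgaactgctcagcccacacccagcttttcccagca
Ptgs1: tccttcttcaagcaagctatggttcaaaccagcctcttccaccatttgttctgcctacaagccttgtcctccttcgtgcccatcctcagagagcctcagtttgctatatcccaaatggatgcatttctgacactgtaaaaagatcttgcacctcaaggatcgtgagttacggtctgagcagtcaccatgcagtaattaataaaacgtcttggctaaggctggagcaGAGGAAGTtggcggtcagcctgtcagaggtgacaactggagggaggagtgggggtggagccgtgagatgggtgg
Of 20 interferon response genes with a window 14 (70.00%) held GAAANNGAA, against 9.76% of all genes. That share describes the list, and its relation to genotype was not tested. Among the 15 higher genes of smallest p, 1 of 11 with a window held these letters (Ifit3). Among the 15 lower genes of smallest p it was 2 of 10 (Cybb and Postn). PU.1-type letters were held by 4 of 17 pan-myeloid genes with a window (23.53%) and by 1 of 19 homeostatic genes (5.26%), against 3.69% of all genes.

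Antigen presentation was uneven. Of 12 class I genes 10 had a positive difference (median 0.31, 0 passing), but without KO replicate 2 the median was −0.04. H2-Q7 was at 0.71, Psmb8, a subunit of the immunoproteasome, at 0.69, H2-D1 at 0.70 and the non-classical chain H2-M3 at −1.01. Of 11 class II genes 4 were positive and 7 negative (median −0.22, 0 passing), with medians of −0.55 without KO replicate 2 and 0.01 without KO replicate 3. H2-Ab1, the beta chain of I-A, read 7.08, 7.09, 8.64 and 6.36 in WT and 5.47, 6.29 and 6.16 in KO (−1.32, adjusted p = 0.670). Cd74, the invariant chain, read 6.87, 6.81, 8.75 and 6.82 in WT and 3.94, 5.88 and 6.25 in KO (−1.96, adjusted p = 0.724). Both had every KO array below every WT array (2 of 11, 18.2%, against 2.36% of all genes). H2-Ob and H2-Oa, the chains of the peptide exchange inhibitor H2-O, had every KO array above (0.68 each). These were also 2 of 11 (18.2%, against 2.72% of all genes), and H2-Ob is adjacent to H2-Ab1. With its brightest probe set H2-Ob was at 0.05.

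Of 6 genes of the phagocyte NADPH oxidase 5 had a positive and 1 a negative difference (median 0.44, or 0.08 without KO replicate 2), and 0 passed. Cybb was at −2.35, and its membrane partner Cyba was at 0.23 (6.05, 6.25, 7.95 and 6.38 in WT, 6.29, 8.12 and 6.25 in KO). The cytosolic subunits Ncf1 (1.21) and Ncf4 (0.62), the GTPase Rac2 (0.58) and the proton channel Hvcn1 (0.31) were positive, and all 6 overlapped. Cyba changed sign without KO replicate 2 (−0.38), as did Hvcn1 (−0.03), and Ncf1 was at −0.11 with its brightest probe set. Differences between these subunits were not tested.

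Genes for uptake of debris had 15 positive and 3 negative differences of 18 (median 0.30, or 0.14 without KO replicate 2, 0 passing). Mertk, a receptor for cells and myelin tagged with GAS6 or protein S, read 6.50, 6.03, 7.24 and 5.68 in WT and 7.07, 8.10 and 7.54 in KO (1.21, adjusted p = 0.290), whereas Axl, of the same receptor family, read 6.71, 6.95, 7.65 and 6.40 in WT and 5.63, 6.80 and 6.41 in KO (−0.65, adjusted p = 0.890). These 2 receptors thus had opposite signs, with overlap in each. Megf10, an engulfment receptor of astrocytes, was at 0.74 and at −0.18 with its brightest probe set. In lipid efflux and storage 7 differences were positive and 11 negative (median −0.03, 0 passing). Apart from Lpl, Ch25h read 4.91, 4.33, 5.93 and 4.64 in WT and 3.27, 4.46 and 3.37 in KO (−1.25, adjusted p = 0.757), and its neighbour Lipa, the lysosomal acid lipase, was at −0.43. Apoe, the main lipid carrier of the brain, lay between 12.24 and 12.40 in WT and between 12.22 and 12.38 in KO, and Npc2, which takes cholesterol out of lysosomes, was at 0.45 and at −0.02 without KO replicate 2. Of 24 genes of sterol and fatty acid synthesis 8 were positive and 16 negative (median −0.18), with Thrsp passing. Elovl6, which elongates fatty acids (−0.93, adjusted p = 0.647), Cyp51 (−0.76) and Msmo1 (−0.81), enzymes of late cholesterol synthesis, lay on the other side from Thrsp and did not pass. Of 26 lysosome genes 18 were positive and 8 negative (median 0.21, 0 passing), but without KO replicate 2 the median was 0.01, and without it and WT replicate 4 there were 11 positive and 15 negative. The proteases Ctss (0.84), Ctsl (0.84) and Lgmn (0.78) were positive and Atp6v0d2 read 6.00, 4.75, 6.75 and 4.06 in WT and 2.87, 3.88 and 4.30 in KO (−1.71, adjusted p = 0.575).

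**Figure D4:**
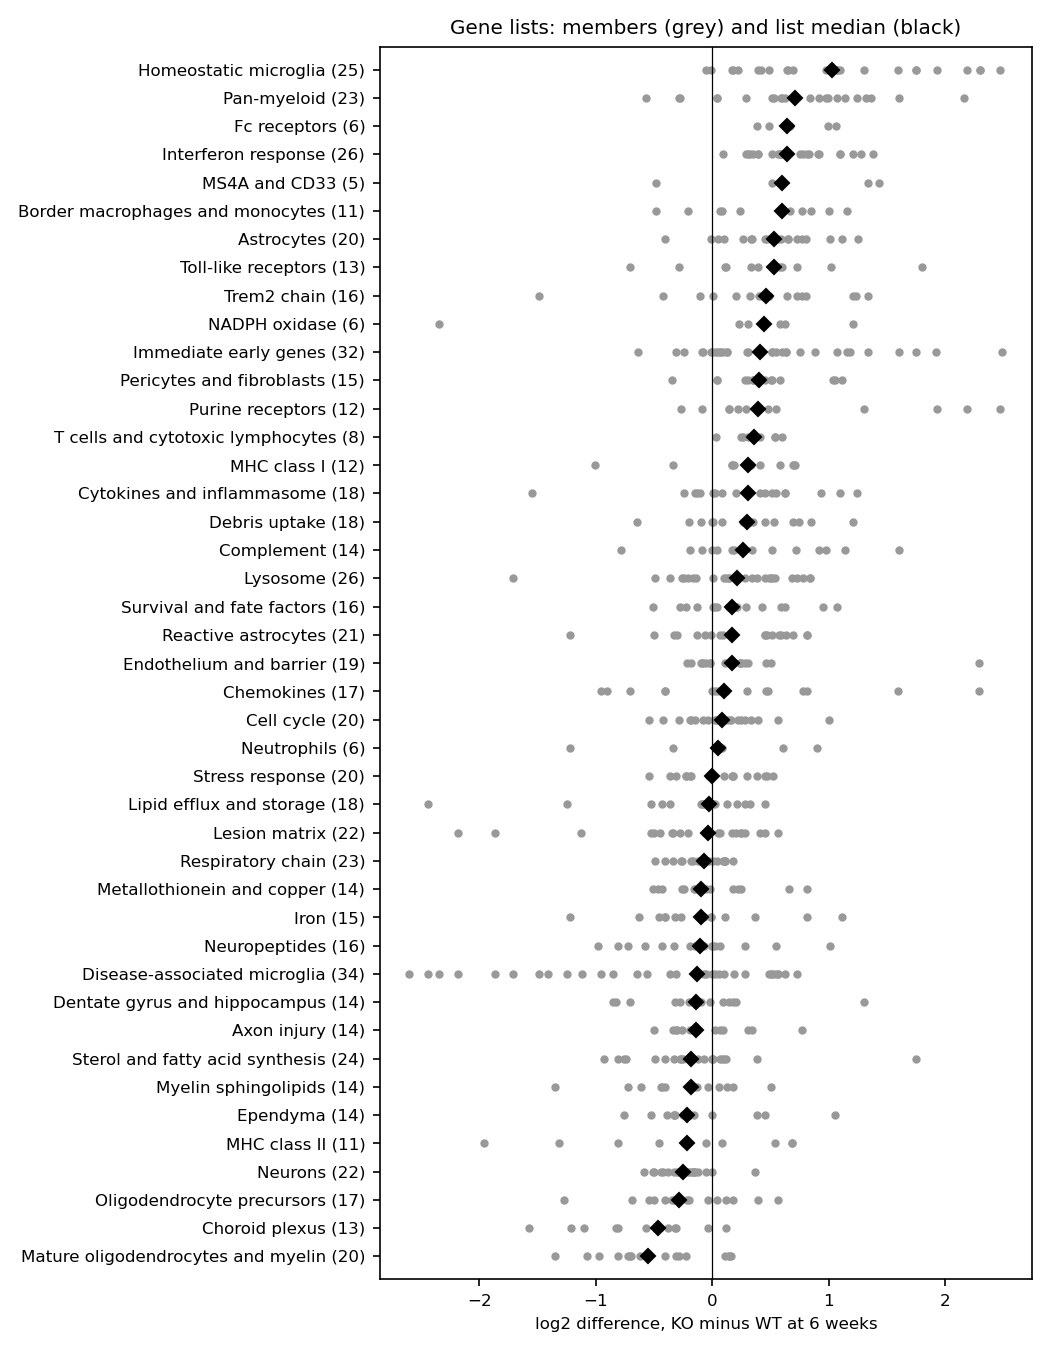
Difference of KO minus WT at 6 weeks (log2, horizontal) of every tested member (grey points) of the 43 gene lists, with the list median as a black diamond and the number of tested members in brackets. Homeostatic microglia have the highest median (1.03) and mature oligodendrocytes the lowest (−0.55), and Cybb stands far to the left of the other NADPH oxidase genes.

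Markers of other leukocytes were measured, since the tissue can hold them. Of 14 genes of border macrophages and monocytes 11 were tested and 3 lay under the filter. Among the 11, 9 had a positive difference (median 0.60, 0 passing), and Stab1 (0.85, adjusted p = 0.373), Mrc1 (1.16, adjusted p = 0.741) and Plac8 (0.60, adjusted p = 0.755) had no overlap (27.3%, against 2.72% of all genes). Without KO replicate 2 the median was 0.38. Mrc1, the mannose receptor of perivascular macrophages, read 3.09, 2.51, 3.36 and 2.88 in WT and 3.40, 4.13 and 4.84 in KO, and F13a1, a marker of monocytes and border macrophages, read 3.69, 3.08, 3.14 and 2.74 in WT and 3.63, 3.58 and 5.27 in KO. Both had WT means under the filter level, and KO replicate 3, not KO replicate 2, was highest. The gap in Mrc1 lay between WT replicate 3 and KO replicate 1, both under the filter level of 3.41, so it is a gap among values too low to rank. The list's score ran from −0.29 to −0.06 in WT and from −0.03 to 0.45 in KO, and its part in the myeloid differences was not tested. Of 15 genes of T cells and cytotoxic lymphocytes 8 were tested (8 positive, median 0.36, 0 passing) and 5 lay under the filter. Of 12 neutrophil genes 6 were tested (median 0.05, 0 passing).

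In factors of microglial survival and fate 12 differences were positive and 4 negative of 16 (median 0.17, or 0.06 without KO replicate 2, 0 passing). Maf, a transcription factor of macrophages, read 5.66, 5.32, 5.90 and 6.28 in WT and 6.63, 7.17 and 6.41 in KO (0.95, adjusted p = 0.263). It alone had every KO array above every WT array (1 of 16, 6.25%, against 2.72% of all genes). Csf1r, the receptor on which microglial survival depends, read 7.98, 7.62, 9.18 and 7.77 in WT and 8.51, 10.02 and 9.09 in KO (1.07, adjusted p = 0.695), where WT replicate 3 exceeded 2 KO arrays. Tgfb1, needed for the resting state, was at 0.62, and Bcl2, which inhibits cell death, at −0.51. In genes of the lesion matrix (median −0.04) Postn and Spp1 were followed by Col3a1 (0.45) and Lamb1 (−0.53), with Col3a1 at −0.18 by its brightest probe set.

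Genes of the oligodendrocyte lineage had mostly negative differences and none passed. Of 20 genes of mature oligodendrocytes and myelin 4 were positive and 16 negative (median −0.55). Mbp, myelin basic protein, read 10.10, 10.22, 11.22 and 11.58 in WT and 9.95, 10.83 and 9.14 in KO (−0.81, adjusted p = 0.999). Ugt8a, which makes the myelin lipid galactosylceramide, read 7.50, 7.41, 9.33 and 9.47 in WT and 7.37, 7.31 and 6.55 in KO (−1.35, adjusted p = 0.824). KO replicates 1 and 2 lay just under WT replicates 1 and 2, KO replicate 3 lay lower, and WT replicates 3 and 4 lay highest. Cldn11 (−1.08), Tspan2 (−0.97) and Cnp (−0.71) overlapped. The list's score was −0.66, −0.54, 0.83 and 1.21 in WT and −0.20, 0.46 and −1.10 in KO, so the WT arrays spanned more than the median difference. The median was −0.01 without KO replicate 3 and −0.19 without WT replicate 4, but −1.05 without KO replicate 2, −0.91 without WT replicate 1 and −0.83 without WT replicate 2. Of 17 precursor genes 5 were positive and 12 negative (median −0.29, or −0.04 without KO replicate 3 and −0.48 without KO replicate 2). Enpp6, a marker of newly forming oligodendrocytes, read 5.76, 5.71, 7.29 and 7.08 in WT and 4.94, 5.64 and 5.00 in KO (−1.27, adjusted p = 0.753), and Gpr17, a receptor of the same stage, was at −0.69. Both had every KO array below every WT array (2 of 17, 11.8%, against 2.36% of all genes). Sox10, a transcription factor of the whole lineage, was at −0.50 and Ptprz1, a phosphatase of precursors and astrocytes, at 0.56, with overlap.

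Astrocyte genes had 18 positive and 2 negative differences of 20 (median 0.53, 0 passing in limma; 11 higher and 0 lower at an unadjusted p under 0.05, against 3.26% and 2.17% of all genes). Without KO replicate 2 the median was 0.28. Slc1a2, the main glutamate transporter of the brain, read 10.23, 10.46, 10.44 and 10.08 in WT and 11.35, 11.52 and 11.35 in KO (1.11 ± 0.21, adjusted p = 0.0746). Its KO arrays lay close together and above the highest WT array, and KO replicate 2 did not stand apart, but its brightest probe set gave 0.28. Gjb6, the connexin 30 of astrocyte gap junctions, read 3.31, 3.56, 3.38 and 4.24 in WT and 4.45, 5.39 and 4.77 in KO (1.25, adjusted p = 0.575). Glul, glutamine synthetase (0.56, adjusted p = 0.653), and Aldoc, aldolase C (0.33, adjusted p = 0.970), also had no overlap, which made 4 of 20 (20%, against 2.72% of all genes). Aldoc was chosen after its values were seen. Slc1a3, the other glial glutamate transporter, was at 0.73 and Gfap, the intermediate filament of reactive astrocytes, at 0.59, with overlap. The list of reactive astrocytes had a median of 0.17, or −0.04 without KO replicate 2, and in it Lcn2, an iron-binding protein, was at −1.22 and Cp, ceruloplasmin, at 0.81. Atp13a5, a pump of brain pericytes, read 5.17, 4.99, 4.97 and 4.40 in WT and 5.83, 6.18 and 6.14 in KO (1.17, adjusted p = 0.191).

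Immediate early genes, transcribed within minutes of a stimulus or of handling, had 25 positive and 7 negative differences of 32 (median 0.41, or 0.23 without KO replicate 2). Zfp36 passed, and in 7 (21.9%, against 2.72% of all genes) every KO array lay above every WT array: Zfp36, Ier2, Ccn1, Fos, Btg2, Dusp1 and Klf2. Ccn1, a matrix signal protein, read 5.73, 6.98, 7.0 and 5.71 in WT and 7.94, 10.70 and 7.89 in KO (2.49, adjusted p = 0.215). Ier2 read 3.44, 4.36, 3.74 and 4.10 in WT and 5.06, 7.45 and 4.99 in KO (1.92, adjusted p = 0.207), and Fos, a subunit of the transcription factor AP-1, read 5.44, 5.88, 5.23 and 5.46 in WT and 6.68, 8.40 and 6.23 in KO (1.60, adjusted p = 0.224). KO replicate 2 was far above the other KO arrays in these 3 genes. Without it they were at 1.56, 1.11 and 0.95. Dusp1 (1.75), a phosphatase of MAP kinases, Btg2 (1.34), which restrains proliferation, and Klf2 (0.88; −0.29 with its brightest probe set) were chosen after their values were seen. At 12 weeks the list had a median of −0.05, with Fos at 0.12, Ier2 at 0.19 and Ccn1 at −0.05.

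Iron genes had 4 positive and 11 negative differences of 15 (median −0.10, or −0.36 without KO replicate 2, 0 passing). Slc40a1, the iron exporter ferroportin, was at 1.11, with KO replicates at 4.05, 6.12 and 4.46, and Tfrc, the transferrin receptor, was at −0.63. The lists of metallothioneins and copper (median −0.10), stress response (0.00), respiratory chain (−0.07) and cell cycle (0.08) had medians near 0 with 0 passing. Neuronal genes had 2 positive and 20 negative differences of 22 (median −0.25), with medians of 0.28 without KO replicate 2 and −0.55 without WT replicate 4. Axon injury genes (−0.14), neuropeptides (−0.11), hippocampal genes (−0.14), choroid plexus (−0.47) and ependyma (−0.22) had 0 passing. Without WT replicate 4 the choroid plexus median was 0.31 and the ependyma median 0.38. Pericyte and fibroblast genes had 14 of 15 positive differences (median 0.40, 0 passing), and in the endothelial list (median 0.17 over 19) Ecscr passed. The myelin sphingolipid list (median −0.18) and the small list of the MS4A family and CD33 (0.60 over 5, or 0.26 without KO replicate 2) had 0 passing.

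**Figure D5:**
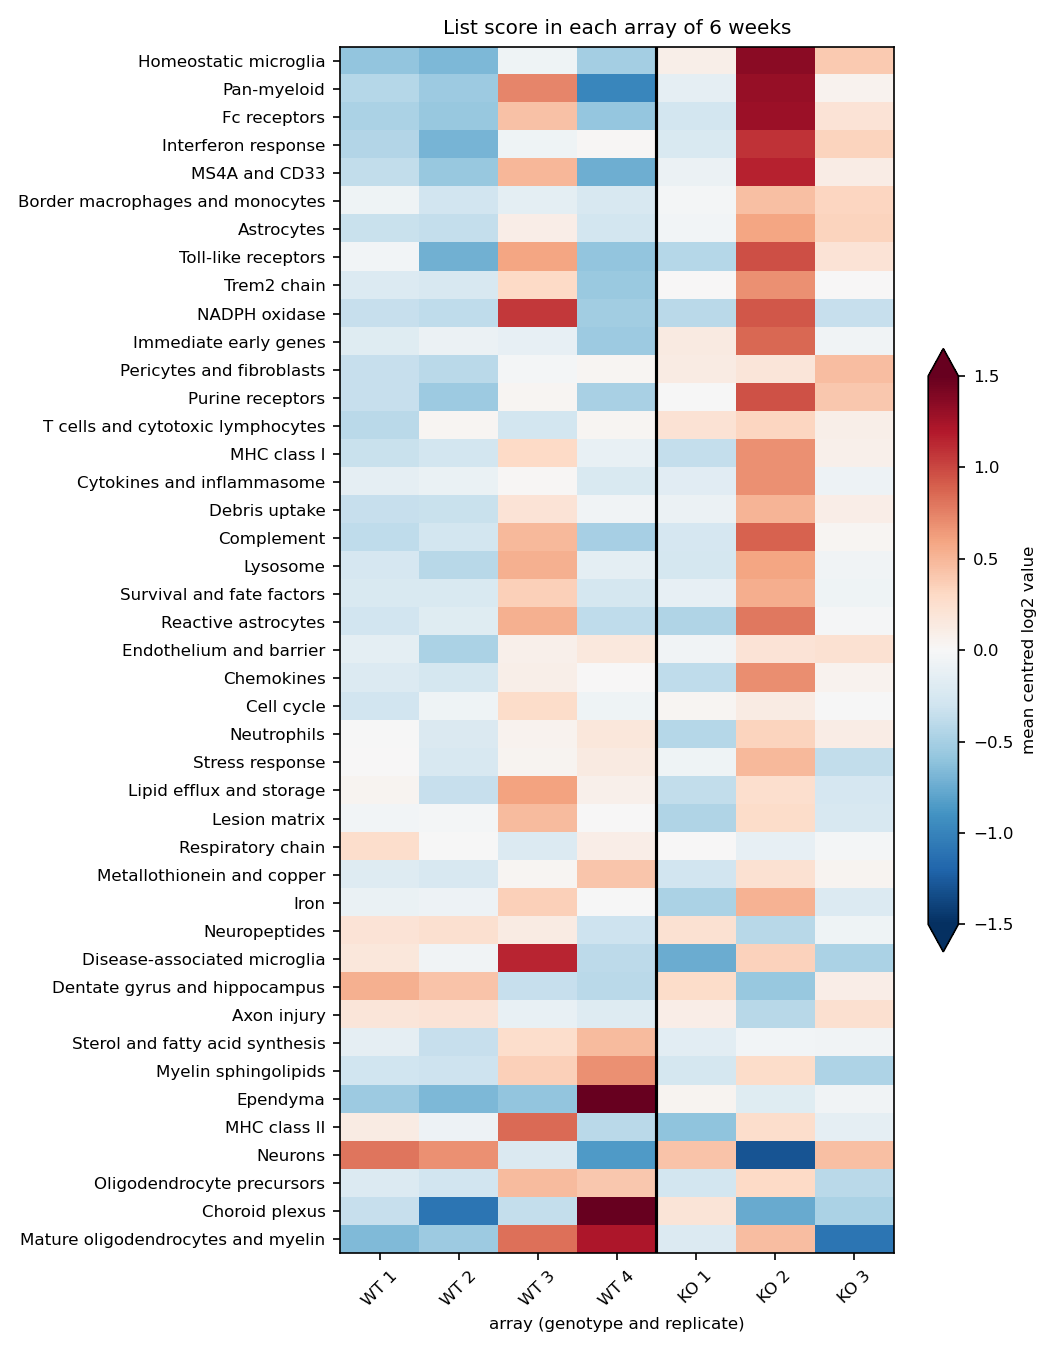
Score of each of the 43 lists (mean centred log2 value, colour) in the 4 WT and 3 KO arrays of 6 weeks, with lists in the order of their median difference and a line between genotypes. KO replicate 2 is red in most myeloid lists and blue in the neuron list (−1.30), and WT replicate 4 is red in choroid plexus (2.83) and ependyma (2.01), both beyond the colour scale.

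The 12-week arrays (5 WT and 6 KO, under the same diet) served to ask whether the differences at 6 weeks differ from those of the later stage. The interaction of genotype and stage had 0 of 16332 genes at an adjusted p under 0.05 (0%) in limma, with a smallest adjusted p of 0.414 and 851 genes at an unadjusted p under 0.05. At 12 weeks 72 genes (0.441%) passed in either direction. Both stages were tested in the same fit with a shared estimate of each gene's spread, so the 2 tests are not independent. Of the 7 genes of 6 weeks, 6 passed at 12 weeks too, and all 7 had the same sign. P2ry13 differed by 1.70 (adjusted p = 0.00382), Siglech by 2.38 (adjusted p = 2.84e-04), Crybb1 by 1.23 (adjusted p = 0.0138), Thrsp by 1.39 (adjusted p = 0.00676), P2ry12 by 1.87 (adjusted p = 0.0210) and Ecscr by 1.94 (adjusted p = 0.0105). Zfp36 was the exception (0.07, adjusted p = 0.893), though its interaction of 1.10 did not pass (adjusted p = 0.648). Of the 15 genes of smallest p in each direction at 6 weeks, the higher ones all had the same sign at 12 weeks and 11 passed, whereas 11 of the lower ones had the same sign and 2 passed (Itgax and Trem2). Postn was at −0.08 at 12 weeks and Il1r1 at 0.69, with interactions of −2.10 (adjusted p = 0.746) and −2.24 (adjusted p = 0.725). The WT mean of Postn was 5.69 ± 1.06 (SD, n = 4) at 6 weeks and 3.88 ± 0.61 (SD, n = 5) at 12 weeks.

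The 5 genes of smallest interaction p in each direction are given as values, since none passed. Those with the more positive difference at 6 weeks were Zfp36, Cyp2d40 (0.45, against −0.93 at 12 weeks), Tex48 (0.71 against −0.55), Trnau1ap (0.66 against −0.46) and Egr1 (1.16 against −0.73). Those with the more negative one were Tbc1d8b (−0.92 against 1.02), Rerg (−0.85 against 1.12), Rwdd3 (−1.38 against 0.92), Scnn1a (−0.62 against 1.29) and Zfp882 (−0.49 against 0.85). Egr1, an immediate early transcription factor, read 7.42, 7.76, 8.16 and 6.92 in WT and 8.16, 10.01 and 8.01 in KO, where KO replicate 2 again stood apart. With the brightest probe set Tex48 (−0.27), Trnau1ap (−0.65) and Tbc1d8b (0.05) changed sign at 6 weeks.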

How the data were processed

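RNA from the caudal corpus callosum was extracted with a column kit, amplified with a kit for small amounts of RNA, labelled with biotin and hybridised to 18 one-colour arrays, per the labels' protocols. The values are log2 probe-set values as deposited by the authors. Background correction, normalization and summary of probes are not stated in any label or header. Medians of the 7 arrays ran from 5.32 to 5.38, and values were used as deposited. Of 241576 probe sets, 212097 carry 1 gene symbol in the platform annotation, 4475 several and 25004 none. Only the first kind was used. Of the symbols, 2668 were updated with RefSeq (GRCm38.p6), and 20289 of 20416 genes matched it. A gene's value is the median of its probe sets. The 20% of genes with the lowest mean (log2 of 3.41 or less) were left out.

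One limma model (3.58.1, R 4.3.3) of all 18 arrays with 4 group means (14 residual and 5.6 prior degrees of freedom) gave KO minus WT at 6 and 12 weeks and the interaction, two-sided, with Benjamini-Hochberg adjustment and a threshold of 0.05. "Passed" means this test, and every adjusted p in the text comes from limma, in this model or in the named alternative. In simulated data with normal noise 38 of 100 genes changed by 1 on the log2 scale and 92 of 100 changed by 2 were recovered among 16332, with 7 false calls. That noise was independent between genes and arrays, with no array set apart, so recovery in the real arrays may differ. The number of arrays limits precision. Named are Trem2 and its family, genes that passed, the 15 of smallest p in each direction, 4 members of smallest p per list (all members of lists of up to 8), the 5 of smallest interaction p in each direction, and further examples chosen after their values were seen. Clone, predicted and olfactory or vomeronasal receptor names were passed over. The members and the 43 lists (734 different gene symbols, 700 genes measured, some in more than 1 list) were chosen with earlier results of these data known. Same-numbered arrays of the genotypes correlated at 0.24, −0.36 and −0.2 in their deviations from group means. Differently numbered arrays correlated at −0.34 to 0.37. So few values cannot decide whether the numbers pair samples, and the labels name no pairs. Other software was pandas 2.3.3 on Python 3.11.15, with matplotlib 3.10.9 for plots and numpy 2.4.6. Alternatives covered the filter, normalization, gene value, spread estimate, array weights, the arrays fitted, a block for the replicate number, sex, tissue scores, thresholds and leaving out arrays; the pan-myeloid covariate was added after seeing the data.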

Additional observations from a re-analysis of the deposited data

Results flagged for a closer look

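Within the 4 WT arrays of 6 weeks, 6 genes and 5 list scores had 1 array whose gap to the nearest other exceeded Dixon's critical value for 4 samples, among 190 groups examined, where chance gives about 1 in 20. Only groups of 4 arrays were examined, so an array apart among the KO arrays would not be flagged. WT replicate 3 was the array apart for most of them. It read 6.50 for Gpr34 (others 5.01 to 5.11), 8.75 for Cd74 (others 6.81 to 6.87), 4.44 for Ncf4 (others 3.73 to 3.80) and 9.43 for Cx3cr1 (others 8.25 to 8.38). It also scored 0.44 for Fc receptors (others −0.58 to −0.48), 1.06 for NADPH oxidase (others −0.52 to −0.34), 0.47 for lesion matrix (others −0.04 to 0.00) and 0.36 for survival and fate factors (others −0.26 to −0.23). WT replicate 4 read 6.19 for Megf10 (others 5.26 to 5.37) and scored 2.01 for ependyma (others −0.67 to −0.55). WT replicate 1 read 5.94 for Rwdd3 (others 4.28 to 4.39).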

How the results depend on the processing

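The count of 7 genes passing at 6 weeks was 0 in a fit of the 7 arrays alone, in which the differences themselves are the same (P2ry13 2.19), 11 with tissue scores as covariates (7 higher and 4 lower in KO), 25 with the pan-myeloid score as a covariate, 13 at a threshold of 0.1 and 0 at a threshold of 0.01. Leaving out 1 array at a time gave 0 (without WT replicate 1), 2 and 11 (WT replicates 2 and 3), 9 (WT replicate 4), 8, 1 and 4 (KO replicates 1, 2 and 3). Without WT replicate 4 and KO replicate 2 together 9 passed, 4 higher and 5 lower, and 4 of the 7 were among them. In each of 4 further settings 5 of the 7 passed. These were the brightest probe set, the mean of the probe sets, array weights and sex as a covariate. The interaction gave 2 with tissue scores and 0 in the other settings where it was counted. It was not counted with the pan-myeloid covariate or in the 7 arrays alone. The Trem2 level in KO against WT passed with the pan-myeloid score as a covariate (−2.01).

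The paired fit with the replicate number as a block (replicate block) gave 0 genes passing at 6 weeks and 0 for the interaction. In the labels the same-numbered arrays share only a number. By their Xist and Y-linked values the same-numbered arrays of 6 weeks also share a sex. Whether the numbers pair samples is not known. In that fit 962 genes were under an unadjusted p of 0.05, against 888 in the main fit.

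Signs at 6 weeks turned for 21 named genes that had not passed, whose main values ran from −1.38 (Rwdd3) to 1.21 (Ncf1). With the brightest probe set the values were Rwdd3 0.02, Fut10 0.07, Tex48 −0.27, Trnau1ap −0.65, Tbc1d8b 0.05, Myd88 0.26, Cyba 0.00, Ncf1 −0.11, Megf10 −0.18, Col3a1 −0.18, Oas2 −0.03 and Klf2 −0.29. With the mean of the probe sets they were Treml1 −0.07 and Treml2 0.17. Leaving out 1 array at a time gave −0.14 to 0.13 for Treml1, −0.43 to 0.12 for Treml2, −0.38 to 0.66 for Cyba, −0.03 to 0.72 for Hvcn1, −0.02 to 0.83 for Npc2, −0.07 to 1.09 for Fcgr3 and −0.07 to 0.70 for Fcgr1. Cyba was −0.09 with array weights, −0.22 with tissue scores, −0.38 without KO replicate 2, −0.48 without WT replicate 4 and KO replicate 2, and −0.61 with the pan-myeloid score. In the same last 3 settings Hvcn1 was −0.03, −0.10 and −0.40, Npc2 −0.02, −0.06 and −0.09, Fcgr3 −0.07, −0.29 and −0.28, and Fcgr1 −0.07, −0.46 and −0.28. Fcgr1 was −0.01 with the replicate block and −0.01 without WT replicate 4. Cst7 was −0.26 without both arrays and −0.30 with the pan-myeloid score, with which Fcgr2b was −0.01 and Tgfb1 −0.04. The cause of these turns was not tested.

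Over 147 named genes 3024 values kept direction and side of the threshold, 56 passed newly, 63 no longer passed and 43 turned sign. Of the list medians 843 moved by less than the spread between arrays and 17 by more. No background level came with the values used, so low values, as in Itgax, Slamf7, Mrc1 and F13a1 in 1 genotype, have uncertain differences.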
